A study of Mus musculus with 6 samples.

Results

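The Krüppel-like factor (KLF) genes encode transcription factors whose zinc fingers bind GC-rich and CACCC-type DNA. The 10 genes described here were Klf2, Klf3, Klf4, Klf5, Klf6, Klf8, Klf9, Klf10, Klf13 and Klf15, out of 22180 mouse genes that had a probe set naming them alone. The list was chosen by family, with measured Torin1 and DMSO values of these arrays already known. Each gene was to be read from its brightest probe set, and each of the 10 had 1 such probe set. Another 7 KLF genes on the arrays were not on that list and are described separately.

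RNA came from wildtype mouse cumulus-oocyte complexes (COCs), in which cumulus cells, the granulosa cells nearest the oocyte, surround it. The 3 Torin1 samples were cultured with 5 µM Torin1, an inhibitor of the kinase MTOR, and the 3 DMSO samples with its vehicle. All samples came from females primed with 5 IU of eCG (equine chorionic gonadotropin) for 46 h, and were cultured as 100 COCs a group with 3 mg/ml of albumin and 5 µM milrinone, which holds oocytes in meiotic arrest. The labels give the age as 21 days or 23 days and the culture as 14 h or 16 h, and name neither separate mice nor culture days. The p-values below thus rest on a spread that could be technical. The complexes hold both cell types together, so the arrays cannot tell fewer cells of a type from less RNA per cell.

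KLF proteins share their DNA-binding fingers and differ in the rest of the protein, which sets whether a member activates or represses. KLF2, KLF4, KLF5 and KLF6 are known mainly as activators, KLF3 and KLF8 as repressors that recruit CtBP, and KLF9, KLF10 and KLF13 as factors that recruit the SIN3A corepressor. Several KLF genes are early-response genes that growth factors, steroids or TGF-beta induce. In rat granulosa cells Klf4 is induced by the ovulatory surge of luteinizing hormone.

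On the log2 scale of the arrays, Klf5 and Klf4 had the largest differences of the 10, at 3.05 and 2.76 higher with Torin1, and Klf8, at 1.39 lower, was the only one called lower. In the fit over all genes, 6 of the 10 were called higher with Torin1 at an adjusted p below 0.05, where 5.13% of all genes were called higher. Of the 10, 1 was called lower (6.94% of all genes) and 3 were not called. Values of the Torin1 and DMSO arrays did not overlap for 8 of the 10, against 28.6% of all genes. The median difference was 0.78 over the 10 genes and 0.01 over all genes. Because the genes were picked with this comparison known, these counts and the p-values below describe the members and are no evidence about the family.

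**Figure D1:**
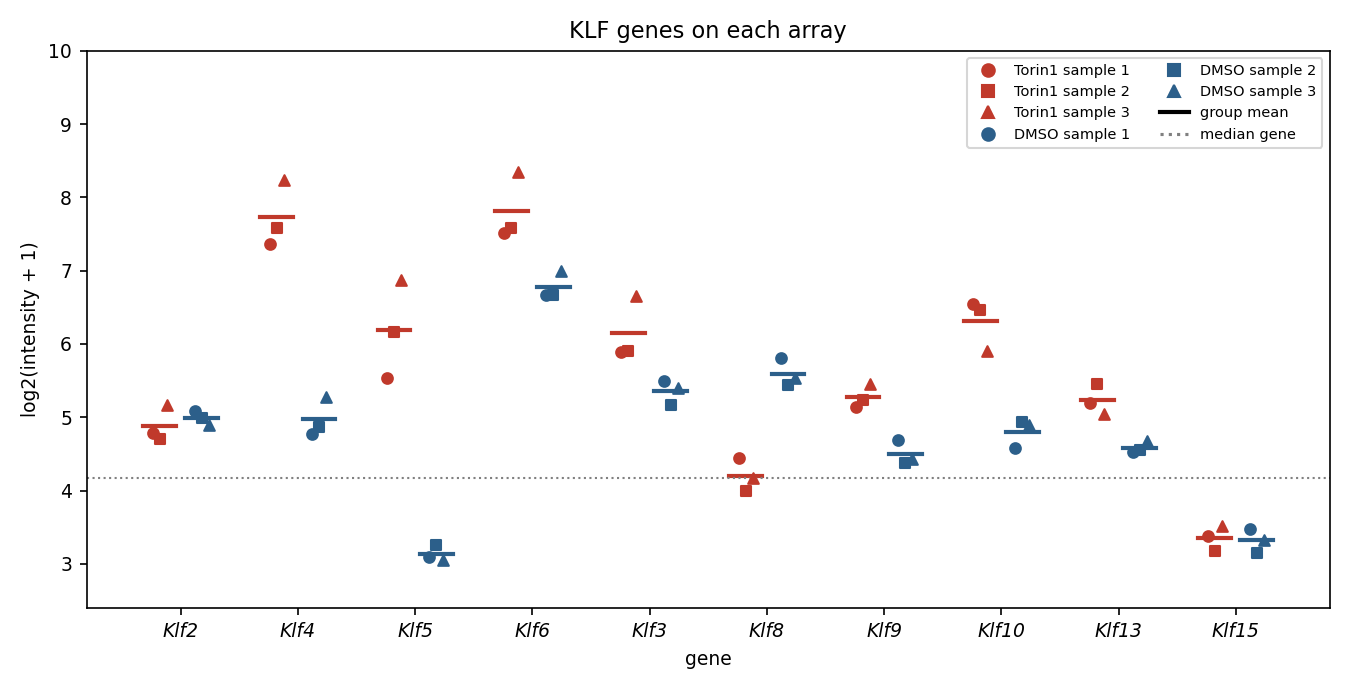
Level of the 10 KLF genes on each array, as log2(intensity + 1), with 3 Torin1 arrays left of 3 DMSO arrays for each gene, bars at the group means and a dotted line at the median gene (4.17). The Torin1 points of Klf4, Klf5, Klf6, Klf3, Klf9, Klf10 and Klf13 lie above all DMSO points, those of Klf8 lie below, and those of Klf2 and Klf15 overlap them.

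Torin1 sample 3 stood apart from the other arrays of its group over all genes. Its log2 values differed from those of Torin1 samples 1 and 2 with an SD of 0.327 and 0.350, against 0.204 between samples 1 and 2 and 0.212 to 0.240 among DMSO samples. The description of sample 3 also repeats the short name of sample 2. Array medians ran from 11.40 to 11.97 intensity units in Torin1 and from 11.12 to 11.65 in DMSO. The fit was repeated without sample 3 for the genes named below, apart from markers given only as low, and for the counts of calls over all genes and over the 10 members, but not for list medians and sums. By their mean over the 6 arrays, all 13 oocyte markers and all 11 granulosa markers lay above the median gene. With Torin1 alone the means of the granulosa markers Amhr2 (4.04), Amh (3.77) and Slc38a3 (4.10) lay below it (4.17).

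Promoter sequence from RefSeq (GRCm38.p6) was at hand for 8 of the 10 genes, in 9 windows of 250 bases before to 50 bases after a transcription start. The sequence source held no entry for Klf5 or Klf10. The 250 bases before the start are shown for Klf4 and Klf9, which were called higher, for the downstream one of 2 listed Klf8 starts, and for Klf2, which was not called, because they hold the matches to motifs of serum, cAMP, MEF2 and FOXO signalling that the text refers to. Each reads 5′ to 3′ on the strand of the gene, with matches to the CRE, short CRE, AP-1, CArG, MEF2, FOXO and TATA motifs in capitals and GC boxes and CACCC left in lower case:
Klf4, chr4:55532476-55532725, minus strand: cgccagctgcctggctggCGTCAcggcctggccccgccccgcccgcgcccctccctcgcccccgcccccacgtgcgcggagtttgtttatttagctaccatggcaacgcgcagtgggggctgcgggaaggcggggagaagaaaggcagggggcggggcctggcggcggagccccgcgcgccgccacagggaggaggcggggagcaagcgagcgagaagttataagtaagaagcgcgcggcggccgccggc
Klf9, chr19:23140976-23141225, plus strand: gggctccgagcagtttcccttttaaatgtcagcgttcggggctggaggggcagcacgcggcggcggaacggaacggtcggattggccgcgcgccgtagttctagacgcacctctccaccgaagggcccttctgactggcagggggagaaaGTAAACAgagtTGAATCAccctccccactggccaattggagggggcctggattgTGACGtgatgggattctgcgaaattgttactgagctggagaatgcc
Klf8, chrX:153359363-153359612, plus strand: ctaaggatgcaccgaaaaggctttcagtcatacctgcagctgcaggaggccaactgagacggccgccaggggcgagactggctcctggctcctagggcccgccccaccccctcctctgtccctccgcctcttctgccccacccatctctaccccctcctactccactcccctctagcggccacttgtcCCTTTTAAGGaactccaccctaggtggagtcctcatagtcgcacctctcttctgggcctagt
Klf2, chr8:72318812-72319061, plus strand: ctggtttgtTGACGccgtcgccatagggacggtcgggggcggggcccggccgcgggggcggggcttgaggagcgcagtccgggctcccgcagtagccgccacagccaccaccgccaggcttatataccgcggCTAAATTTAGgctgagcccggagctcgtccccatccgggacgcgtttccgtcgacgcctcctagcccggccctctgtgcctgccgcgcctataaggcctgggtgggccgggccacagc

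The capitals in the Klf4 window mark 1 match, at -232 to -228 on the opposite strand, to the short CRE TGACG, a core of the cAMP response element (CRE). In Klf9 they mark, in order, the FOXO motif TGTTTAC on the opposite strand at -100 to -94, the AP-1 motif TGANTCA at -89 to -83 and a short CRE at -46 to -42. The Klf8 window held a CArG box, the motif of serum response factor, at -62 to -53. In Klf2 a short CRE stood at -241 to -237 and a MEF2 motif at -118 to -109. Of 32851 RefSeq windows of the same length, 20.8% held the short CRE, 7.81% the AP-1 motif, 3.65% the FOXO motif, 3.19% the MEF2 motif and 1.63% a CArG box on either strand. Short CREs also occurred in the windows of Klf3, Klf13 and Klf15, and the full CRE TGACGTCA (1.79% of windows) and the TATA box TATAAA (13.6%) occurred in none of the 9. A full CRE contains the short one, and in Klf9 a CACCC match overlapped the AP-1 match. A short CRE was found in genes called higher and in genes not called.

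The GC box GGGCGG, which SP and KLF proteins can bind, occurred in 8 of the 9 windows, all but that of Klf9, and in 35.7% of all windows. CACCC occurred in the windows of Klf2, Klf3, Klf8, Klf9, Klf13 and Klf15 and in 57.5% of all windows. Klf3 held 6 GC boxes and 5 CACCC matches, more than any other of the 9 windows. GC made up 54.8% to 78.4% of the 250 bases in these windows, against a median of 52.4% over all windows. Base composition differs with these counts, and a match shows only that the letters are present.

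**Figure D2:**
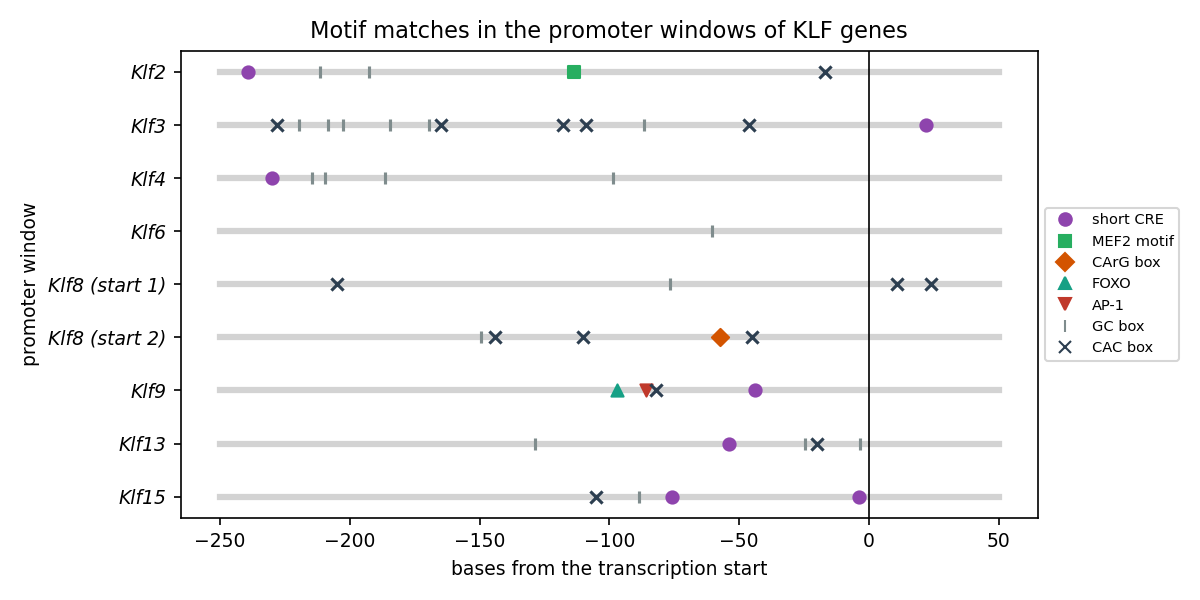
Motif matches in the 9 promoter windows of 8 KLF genes, by their distance in bases from the transcription start (vertical line), with 1 row for each window and both strands searched. CAC box stands for CACCC. The MEF2 motif was matched in the Klf2 window, the CArG box at the second Klf8 start, and the FOXO and AP-1 motifs in the Klf9 window.

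Among the activators, Klf4 encodes a factor of epithelial differentiation that also serves in reprogramming to pluripotency. Its log2 level was 7.37, 7.58 and 8.24 in Torin1 samples and 4.77, 4.87 and 5.27 in DMSO samples. The lowest Torin1 array lay 2.10 above the highest DMSO array. The means were 7.73 ± 0.45 with Torin1 and 4.97 ± 0.27 with DMSO (SD, n = 3 each), a difference of 2.76 ± 0.24 (SE) or 6.77-fold (limma, adjusted p = 0.00069). Without Torin1 sample 3 it was 2.51.

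Klf5 encodes an activator known from proliferating epithelia, such as intestinal crypts. Its intensities were 45.4, 70.4 and 116.1 in Torin1 samples and 7.5, 8.6 and 7.3 in DMSO samples. The DMSO arrays were dim and close together, and the Torin1 arrays were all higher and spread widely. On the log2 scale the means were 6.19 ± 0.67 with Torin1 and 3.14 ± 0.11 with DMSO (SD, n = 3 each), and the difference was 3.05 ± 0.30 (SE; limma, adjusted p = 0.00125). As the DMSO mean was under that of the median gene (4.17), the size depends on the pseudocount: with a pseudocount of 16 it was 1.90, and with none 3.21.

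Klf6 encodes a widely expressed factor known as an early gene of tissue injury. Its log2 level was 7.52, 7.58 and 8.35 in Torin1 samples and 6.67, 6.67 and 7.0 in DMSO samples, without overlap. The difference was 1.04 ± 0.23 (SE), or 2.06-fold (limma, adjusted p = 0.0275). Without Torin1 sample 3 it was 0.77 and called. It was not called without DMSO sample 1, 2 or 3 (adjusted p = 0.0956, 0.0955 and 0.057) or with a pseudocount of 16 (adjusted p = 0.062), while it kept its direction in each.

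Klf2, whose product maintains quiescence of endothelial cells and T cells, was the activator that was not called. Its log2 level was 4.78, 4.70 and 5.17 in Torin1 samples and 5.08, 4.99 and 4.89 in DMSO samples, and Torin1 sample 3 lay above every DMSO sample while samples 1 and 2 lay below them. The difference was -0.10 ± 0.13 (SE; limma, adjusted p = 0.763), with a 95% interval of -0.42 to 0.21. Without Torin1 sample 3 the difference was -0.24, still not called.

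Of the CtBP-recruiting repressors, Klf8 was called lower and Klf3 was not called. Klf8 had log2 levels of 4.45, 3.99 and 4.17 in Torin1 samples and 5.81, 5.44 and 5.53 in DMSO samples, so all Torin1 arrays lay below all DMSO arrays. The means were 4.20 ± 0.24 and 5.59 ± 0.19 (SD, n = 3 each), and the difference was -1.39 ± 0.15 (SE), or 2.62-fold lower with Torin1 (limma, adjusted p = 0.0016). The Torin1 mean was near the median gene, and with a pseudocount of 16 the difference was -0.92.

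Klf3, the other repressor of this kind, is widely expressed and acts in blood and fat cells. It had 5.89, 5.90 and 6.65 in Torin1 samples and 5.50, 5.17 and 5.40 in DMSO samples on the log2 scale. The groups did not overlap, but the gene was not called: the difference was 0.79 ± 0.21 (SE; limma, adjusted p = 0.0585), with a 95% interval of 0.29 to 1.30. Sample 3 set the spread in Torin1. Without it the difference was smaller, at 0.54, and was called (adjusted p = 0.0238).

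Klf9, Klf10 and Klf13, given above as recruiting SIN3A, were called higher, as were 5.13% of all genes. They were picked with this comparison known, so the calls say nothing of SIN3A-recruiting members as a class. Klf11, a close relative of Klf10 that was not on the list, was not called. Klf10 encodes a TGF-beta-inducible early factor. Its log2 level was 6.55, 6.46 and 5.91 in Torin1 samples and 4.58, 4.93 and 4.90 in DMSO samples. The lowest Torin1 array lay 0.98 above the highest DMSO array, and the difference was 1.50 ± 0.18 (SE), or 2.83-fold (limma, adjusted p = 0.00298). In contrast to Klf4, Klf5 and Klf6, sample 3 had the lowest Torin1 value, and the difference without it was 1.70.

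Klf9 is known as a gene induced by glucocorticoids and thyroid hormone, and its product interacts with the progesterone receptor in the uterus. Its log2 level was 5.14, 5.23 and 5.46 in Torin1 samples and 4.69, 4.38 and 4.43 in DMSO samples. The spread was alike in both groups, with an SD of 0.17 in each, and the difference was 0.78 ± 0.12 (SE; limma, adjusted p = 0.00759). With a pseudocount of 16 the difference was 0.51.

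Klf13, first known as a regulator of a chemokine gene in T lymphocytes, had 5.20, 5.46 and 5.05 in Torin1 samples and 4.52, 4.56 and 4.68 in DMSO samples on the log2 scale. All Torin1 arrays lay above all DMSO arrays, by a difference of 0.65 ± 0.12 (SE; limma, adjusted p = 0.0133). The call was lost without DMSO sample 1 or 2 (adjusted p = 0.0545 and 0.052), and with a pseudocount of 16 the difference was 0.43.

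Klf15, a glucocorticoid-responsive regulator of amino acid and glucose metabolism in liver and muscle, was dim on every array. Its log2 level was 3.38, 3.17 and 3.52 in Torin1 samples and 3.48, 3.15 and 3.33 in DMSO samples, all below the median gene (4.17). The values overlapped, and the difference was 0.03 ± 0.12 (SE; limma, adjusted p = 0.935) with a 95% interval of -0.26 to 0.33.

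**Figure D3:**
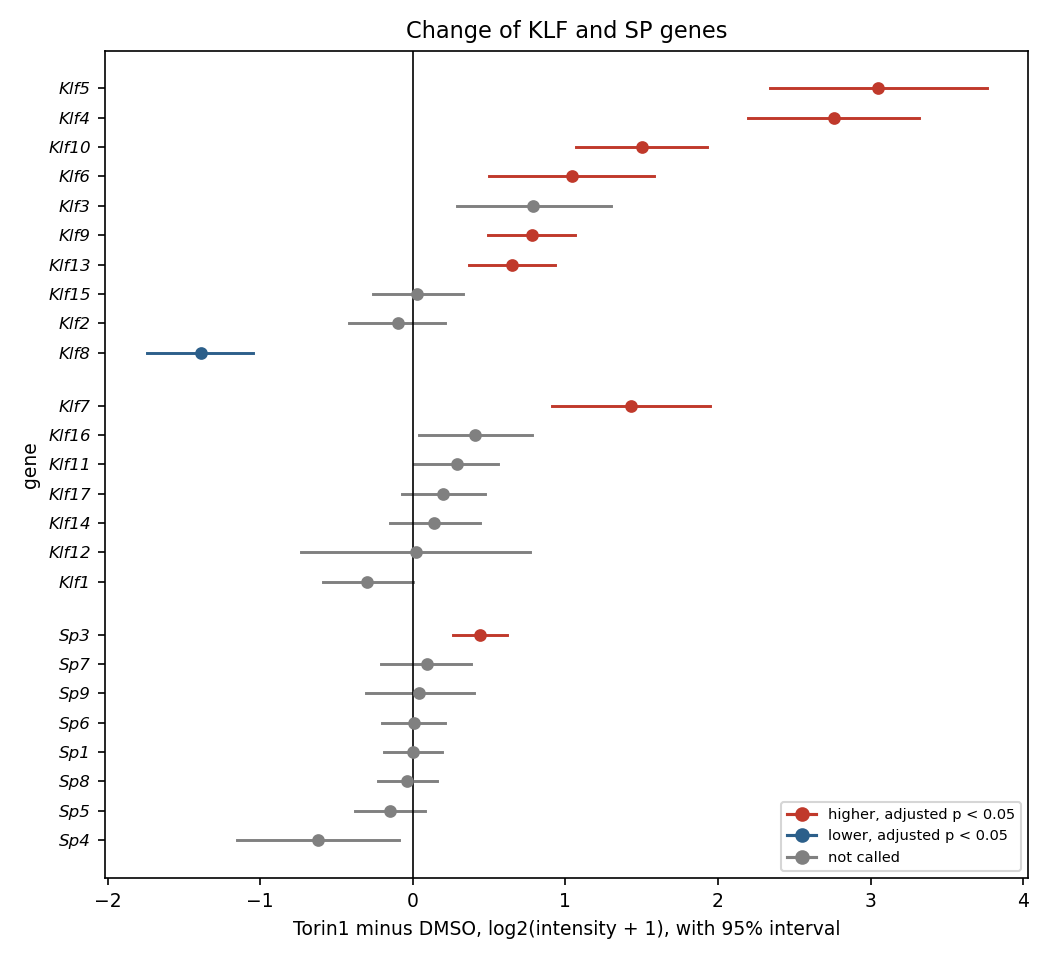
Difference between Torin1 and DMSO means on the log2(intensity + 1) scale, with 95% intervals from the fit, for the 10 listed KLF genes (top), 7 other KLF genes (middle) and 8 SP genes (bottom). Klf8 is the only KLF gene with a called fall, and intervals widen for Klf12, Klf5 and Klf4.

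The members also differed in how the Torin1 arrays varied among themselves. The range over 3 arrays was wider in Torin1 than in DMSO for all 10 genes, from 0.32 against 0.31 for Klf9 to 1.33 against 0.21 for Klf5. Sample 3 held the highest Torin1 value for 7 of the 10 and the lowest for 2, Klf10 and Klf13. Neither count was made over all genes, where sample 3 also stood apart, so they mark no trait of the KLF genes. It exceeded the mean of samples 1 and 2 by 1.02 for Klf5, 0.80 for Klf6, 0.76 for Klf4 and 0.76 for Klf3, and lay below it by a difference of -0.59 for Klf10 and -0.28 for Klf13. Thus the genes that were higher with Torin1 did not rank the Torin1 arrays alike. What in sample 3 goes with these values was not tested.

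**Figure D4:**
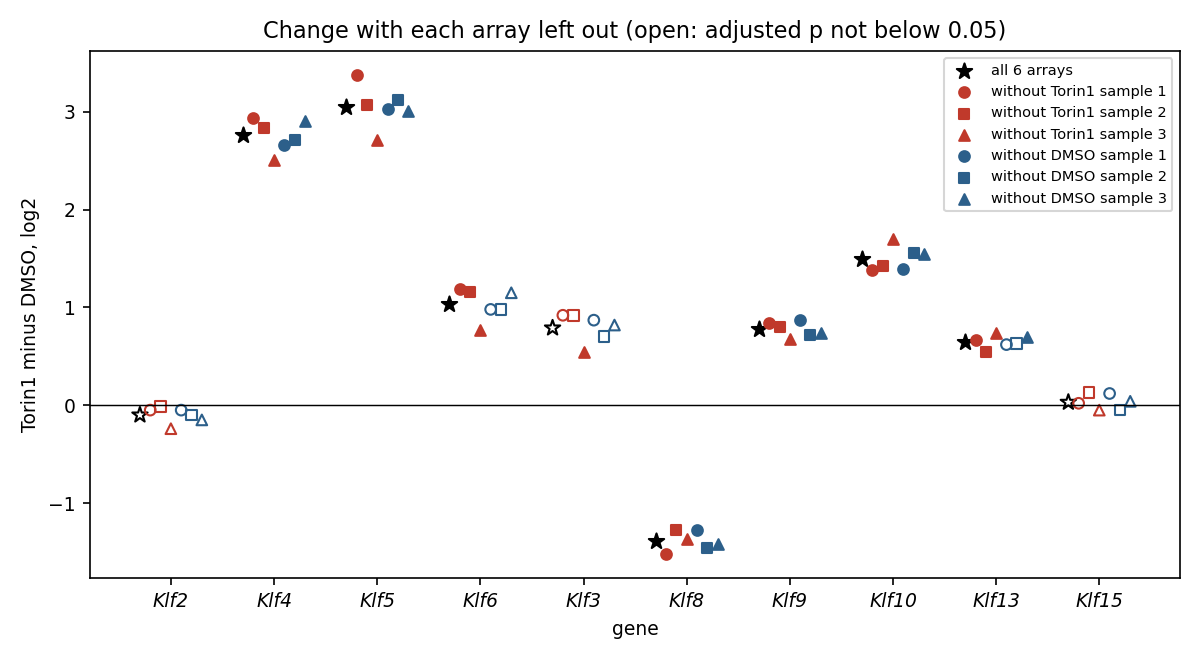
Difference between Torin1 and DMSO on the log2 scale for each of the 10 KLF genes with all 6 arrays (star) and with each array left out, where open symbols mark an adjusted p that is not below 0.05. Klf4, Klf5, Klf8, Klf9 and Klf10 stay filled throughout, and open symbols appear for Klf6 and Klf13 where a DMSO array is left out.

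Of the 7 other KLF genes on the arrays, 1 rose and 6 were not called, with a median difference of 0.20. Klf7, an activator close to Klf6 in sequence, rose by 1.43 ± 0.22 (SE; limma, adjusted p = 0.00708). It had 5.85, 5.85 and 6.68 in Torin1 samples and 4.73, 4.65 and 4.73 in DMSO samples, so that sample 3 was again the highest. Klf16 was at 6.34 ± 0.32 with Torin1 and 5.93 ± 0.07 with DMSO (SD, n = 3 each), without overlap but not called (adjusted p = 0.165). Klf11, a close relative of Klf10, was at 6.08 ± 0.12 with Torin1 and 5.80 ± 0.19 with DMSO and was not called either (adjusted p = 0.189).

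Klf17, a gene expressed in germ cells, had the values 8.02, 8.10 and 8.23 in Torin1 samples and 7.81, 7.80 and 8.13 in DMSO samples, and the groups overlapped (difference 0.20 ± 0.11; adjusted p = 0.369). Klf14, at 0.14 ± 0.12, and Klf12, at 0.02 ± 0.32, were not called, and the interval of Klf12 reached from -0.73 to 0.77. Klf1, the erythroid member, was dim, with 2.98 ± 0.14 in Torin1 and 3.28 ± 0.20 in DMSO (adjusted p = 0.204). Klf18 is not analysed here. Together the 17 KLF genes had 7 called higher, 1 called lower and 9 not called, with a median difference of 0.41. Over all genes 5.13% were called higher and 6.94% lower, with a median of 0.01. The 17 include the 10 picked with this comparison known, which hold 6 of the calls higher and the only call lower.

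SP proteins share the DNA-binding fingers of the KLF family. Of 8 SP genes 1 was called higher, 0 were called lower and 7 were not called, with a median of 0.00. Sp3, a widely expressed member that competes with SP1 for GC boxes, was at 6.33 ± 0.08 with Torin1 and 5.89 ± 0.04 with DMSO (SD, n = 3 each), a difference of 0.44 ± 0.08 (SE; limma, adjusted p = 0.0114). Sp1 itself differed by 0.00 ± 0.08 (adjusted p = 0.997). Sp4 was at 5.00 ± 0.40 with Torin1 and 5.62 ± 0.29 with DMSO, without overlap and not called (adjusted p = 0.14). Sp5, Sp6, Sp7, Sp8 and Sp9 lay below the median gene and differed by -0.15 to 0.09.

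Genes that act on KLF proteins or upstream of KLF genes were read from lists of known partners. Against each list from here on stand the shares over all genes, 5.13% called higher and 6.94% lower. The lists were chosen with earlier results known, so their counts describe the listed genes and are no evidence about a route. Of 14 cofactors 1 fell, 0 rose and 13 were not called, with a median of 0.10. The member that fell was Ctbp1, the corepressor that KLF3 and KLF8 bind, at 7.54 ± 0.06 with Torin1 and 7.84 ± 0.04 with DMSO (SD, n = 3 each; difference -0.30 ± 0.07, SE; adjusted p = 0.0371). It was not called without Torin1 sample 1 or 2 or any DMSO sample (adjusted p up to 0.134). Of 9 genes of KLF protein turnover 3 rose and 6 were not called, with a median of 0.31. Fbxo32, a ubiquitin ligase gene, rose by 2.44 ± 0.27 (adjusted p = 0.00201), Fbxw7, another ligase gene, by 0.54 ± 0.10 (adjusted p = 0.0159), and Usp3, a deubiquitinase gene, by 0.43 ± 0.11 (adjusted p = 0.0444). Fbxw7 lost its call without DMSO sample 2 or 3 (adjusted p up to 0.0698), and Usp3 in every leave-out but that of DMSO sample 3 (adjusted p up to 0.14).

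The kinase ERK5 and its MEF2 partners are known to induce Klf2 and Klf4 in endothelial cells. Of 7 genes of this route 1 rose, 1 fell and 5 were not called, with a median of 0.19. Map3k2, a kinase at its head, had 7.74, 7.99 and 7.32 in Torin1 samples and 6.17, 5.94 and 6.42 in DMSO samples, a difference of 1.51 ± 0.19 (SE; limma, adjusted p = 0.00344). Mef2c had 3.64, 3.66 and 3.44 in Torin1 samples and 5.32, 5.23 and 5.27 in DMSO samples, and fell by 1.69 ± 0.09 (limma, adjusted p = 9.81e-05). Mapk7, the gene of ERK5 itself, was at 5.56 ± 0.02 with Torin1 and 5.53 ± 0.18 with DMSO, and was not called (adjusted p = 0.947). The MEF2 motif printed above stands in the window of Klf2, which was not called. Only bases near the transcription start were searched, and the part of this route in the KLF values was not tested.

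Of 12 glucocorticoid-responsive genes, a group to which Klf9 and Klf15 belong in other tissues, 5 rose, 1 fell and 6 were not called, with a median of 0.23. The 6 not called differed by -0.06 to 0.38 (limma, adjusted p 0.426 to 0.987). The part of glucocorticoids in the KLF values was not tested. The phosphatase gene Dusp1 rose by 1.30 ± 0.16 (adjusted p = 0.00277), Sgk1, a kinase gene, by 1.29 ± 0.32 (adjusted p = 0.0441), Mt2, a metallothionein gene, by 0.97 ± 0.23 (adjusted p = 0.0397) and Errfi1, an inhibitor of EGF receptors, by 0.52 ± 0.09 (adjusted p = 0.0112). Cebpd rose by 0.33 ± 0.07 and Fkbp5, a chaperone gene of the receptor complex, fell by 0.49 ± 0.11 (adjusted p = 0.0319 and 0.0299). The receptor gene Nr3c1 was at 5.46 ± 0.05 with Torin1 and 5.47 ± 0.09 with DMSO. Calls were lost without Torin1 sample 1 or any DMSO sample for Sgk1, Mt2, Cebpd and Fkbp5, and without Torin1 sample 2 for Mt2 and Cebpd (adjusted p up to 0.133).

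TGF-beta early genes, the setting in which Klf10 was first described, had 5 of 9 called higher, 0 lower and 4 not called, with a median of 0.75. The 4 not called differed by -0.42 to 0.23 (limma, adjusted p 0.133 to 0.852). The part of TGF-beta signalling in the KLF values was not tested. The transcription factor genes Junb, Id1 and Bhlhe40 rose by 2.75 ± 0.17, 2.16 ± 0.20 and 1.51 ± 0.30, and Skil, a feedback inhibitor of SMAD proteins, by 1.20 ± 0.08. Their adjusted p were 0.000218, 0.000982, 0.0192 and 0.000315. The receptor gene Tgfbr1 rose by 0.75 ± 0.18 (adjusted p = 0.0402), and was called in 1 of 6 leave-outs, that of Torin1 sample 1 (adjusted p otherwise up to 0.129). Bhlhe40 lost its call without Torin1 sample 1 or 2 (adjusted p up to 0.061).

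Lists of known targets of KLF proteins were read as well. Of 8 endothelial targets of KLF2 and KLF4, 0 were called in limma, with a median of 0.03, and 1 had an unadjusted p below 0.05: Thbd, the thrombomodulin gene, at 4.30 ± 0.45 with Torin1 and 3.64 ± 0.18 with DMSO (SD, n = 3 each; limma, adjusted p = 0.117). S1pr1, a sphingosine phosphate receptor gene, differed by 0.22 ± 0.11 (adjusted p = 0.319). Of 10 metabolic targets of KLF15 and KLF9, 1 fell, 0 rose and 9 were not called, with a median of -0.20. Bcat2, which starts the breakdown of branched-chain amino acids, fell by 0.49 ± 0.09 (adjusted p = 0.0167), and lost its call without Torin1 sample 1 or 2 or DMSO sample 3 (adjusted p up to 0.0583).

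Of 7 cell cycle genes known as targets of KLF4, KLF5 or KLF6, 1 rose, 0 fell and 6 were not called, with a median of -0.23. Cdkn1a, the gene of the inhibitor p21, had 9.10, 9.16 and 9.06 in Torin1 samples and 8.36, 8.45 and 8.47 in DMSO samples. It rose by 0.68 ± 0.07 (SE; limma, adjusted p = 0.00168). Whether KLF proteins had a part in the values of these target lists was not tested.

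**Figure D5:**
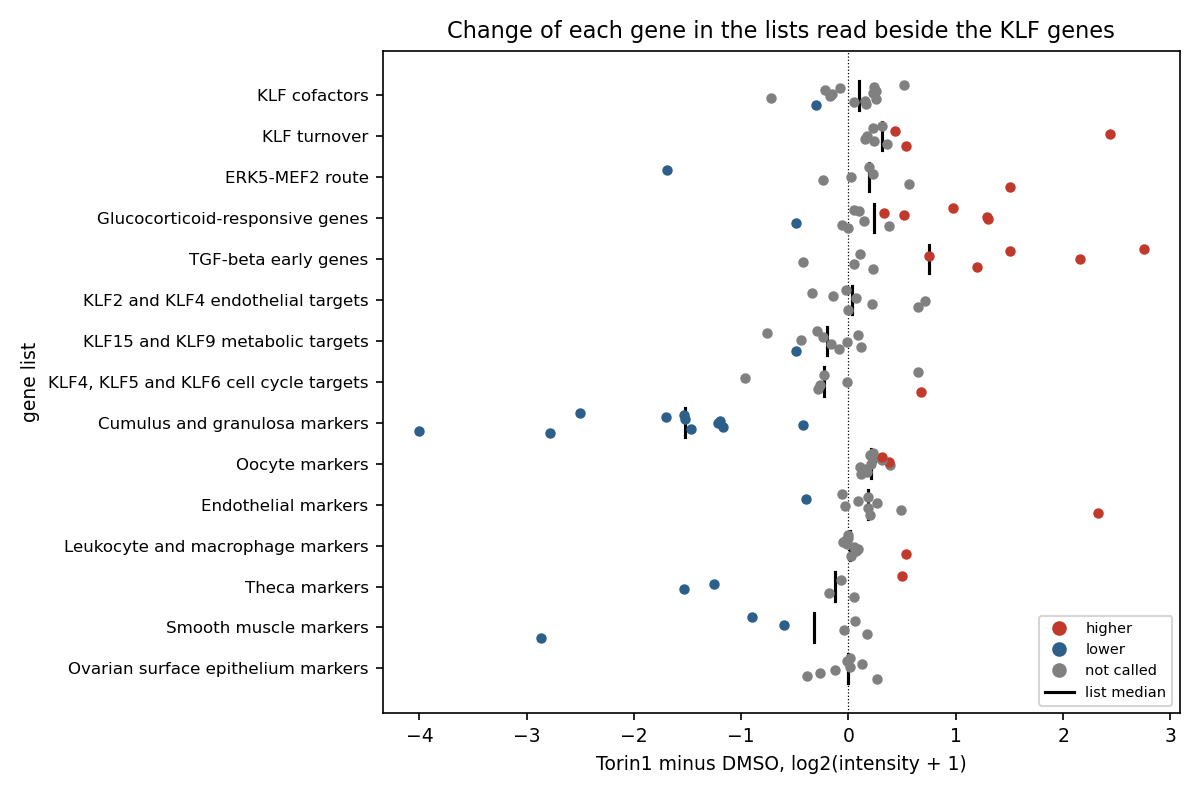
Difference between Torin1 and DMSO on the log2(intensity + 1) scale for each gene of the lists read beside the KLF genes, 1 point a gene, coloured by its call in the fit over all genes, with a bar at the list median. Granulosa markers lie below 0, oocyte markers slightly above it, and most other lists spread around 0 with single genes far from it.

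Markers of the cells present moved with the treatment and stand beside every KLF value above. All 11 granulosa markers fell, with a median of -1.52, and their summed intensity was 2118.8 to 2467.0 in Torin1 samples and 4780.1 to 5230.3 in DMSO samples. Amhr2, the anti-Müllerian hormone receptor gene, changed by -4.0 ± 0.42, Fshr by -2.78 ± 0.40, Slc38a3 by -2.50 ± 0.61 and Hsd17b1 by -1.70 ± 0.14 (SE). Slc38a3 was not called without Torin1 sample 1 or 2 or DMSO sample 2 or 3 (adjusted p up to 0.119). Of 13 oocyte markers 2 rose, 0 fell and 11 were not called, with a median of 0.21, and their sum was 6237.3 to 6794.0 in Torin1 samples and 5574.0 to 5981.9 in DMSO samples. The rises were Figla (0.38 ± 0.09) and Dppa3 (0.31 ± 0.07), which lost the call in 4 and 6 of 6 leave-outs (adjusted p up to 0.118). Whether the makeup of the complexes had a part in the KLF values was not tested.

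Markers of other cells that express KLF genes differed in level by list. Of 10 endothelial markers 5 lay above the median gene, 1 rose, 1 fell and 8 were not called, and their summed intensity was 214.7 to 328.4 in Torin1 samples and 167.7 to 173.9 in DMSO samples. The rise was that of Cdh5, the VE-cadherin gene, with 6.54, 7.22 and 5.54 in Torin1 samples and 4.14, 4.08 and 4.07 in DMSO samples (difference 2.33 ± 0.37; limma, adjusted p = 0.00835). Emcn, Cldn5, Esam, Robo4 and Vwf lay below the median gene in both groups, and Egfl7 fell by 0.40 ± 0.07 (adjusted p = 0.0132; not called without DMSO sample 2 or 3, adjusted p up to 0.0538). Cdh5, Klf4 and Klf5 were each higher on every Torin1 array than on any DMSO array. Among the Torin1 arrays, Cdh5 was lowest in sample 3, as were 2 of the 10 KLF genes, Klf10 and Klf13. In that sample 7 of the 10, Klf4 and Klf5 among them, were highest. The part of endothelial cells in the KLF values was not tested. Among 10 leukocyte and macrophage markers 1 lay above the median gene, Cd68, which rose by 0.54 ± 0.11 (adjusted p = 0.0186) but was not called without Torin1 sample 1 or any DMSO sample (adjusted p up to 0.0681). Their sum was 104.3 to 110.8 in Torin1 samples and 94.9 to 101.1 in DMSO samples.

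Above the median gene lay 2 of 6 theca markers, 5 of 6 smooth muscle markers and 2 of 8 markers of the ovarian surface epithelium. Of the 6 theca markers 1 rose, 2 fell and 3 were not called, with sums of 106.9 to 130.8 in Torin1 samples and 225.0 to 298.2 in DMSO samples. Ptch1 and Gli1, targets of hedgehog signalling, changed by -1.53 ± 0.19 and -1.25 ± 0.23, Star rose by 0.50 ± 0.08, and Cyp17a1, the defining enzyme gene, lay below the median gene in both groups. Gli1 was not called without DMSO sample 2 (adjusted p = 0.0551). Of 6 smooth muscle markers 3 fell and 3 were not called (Acta2 by -2.87 ± 0.12, Mylk by -0.90 ± 0.11 and Cnn1 by -0.60 ± 0.11), with sums of 191.7 to 253.2 in Torin1 samples and 466.9 to 568.9 in DMSO samples. Of 8 markers of the ovarian surface epithelium 0 were called in limma (1 at an unadjusted p below 0.05, Krt7), and their sums were 116.3 to 166.7 in Torin1 samples and 156.8 to 170.6 in DMSO samples. The part of these cells in the KLF values was not tested.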

How the data were processed

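RNA of 6 COC samples (3 Torin1, 3 DMSO, grouped by title) was amplified with NuGEN Ovation Pico WTA and biotin-labelled, per the labels' protocols. The deposited intensity values, 1 per probe set and array, come, per the submitters' processing notes, from RMA, Affymetrix Expression Console 1.1 and GCOS. No source used here gives their settings. RMA brings the arrays to a like distribution, so changes are relative to other transcripts. The deposited values were alike but not equal in this, with array medians of 11.12 to 11.97. Of 41345 probe sets, 23521 named 1 gene, 1814 several and 16010 none; the brightest one per gene gave 22180 genes.

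Values were tested as log2(intensity + 1), which understates changes of dim genes, with limma 3.58.1 in R 4.3.3 (lmFit, eBayes, two-sided, no covariate, no filter, Benjamini-Hochberg over all genes, called below 0.05). On simulated data with these 22180 genes, 34%, 96%, 100% and 100% of 50 genes changed by 0.5, 1, 2 and 3 on the log2 scale were recovered. The count of false calls there was 9. The members, lists and rules were chosen with earlier results of these data known. Named genes were all KLF and SP genes and the called genes of every other list that changed most, at most 4 (or the 2 of lowest p in a list with no call). Cebpd, Fkbp5, Tgfbr1, Mapk7, Nr3c1, and Amh, Cyp17a1 and other markers given only as low were chosen after their values were seen. The number of arrays limits the precision. Alternatives are given in the closing section.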

Additional observations from a re-analysis of the deposited data

How the results depend on the processing

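Over 16 alternatives, 5 of the members (Klf4, Klf5, Klf8, Klf9 and Klf10) were called in every one, and the count of members called ran from 5 to 8, also when single arrays were left out. Besides the leave-outs already given, Klf3 was called among genes above the median gene (adjusted p = 0.0332), with array weights (0.0406), with a trended prior variance (0.0435) and with Torin1 samples 2 and 3 as 1 sample (0.0229), where Klf16 was called as well (0.0384). For the 43 named genes that were called, 585 of 686 alternative values kept the call and 101 lost it. For the 22 that were not called, 6 of 342 gained one. No called gene changed direction. Leaving out single arrays gave 1518 to 3083 genes called in all (2678 with every array), 655 to 1389 higher (1138) and 844 to 1694 lower (1540). Median centring and quantile normalization moved the median of all genes by less than 0.1 and no KLF call. Over all genes median centring gave 882 called higher and 1634 lower, and quantile normalization 1177 and 1777. Over all genes, same-numbered Torin1 and DMSO arrays had residual correlations of -0.21, -0.30 and -0.15. The highest between the groups was 0.31, of Torin1 sample 1 with DMSO sample 2. These values show no pairing by sample number, but with 3 arrays a group they cannot exclude it. With the replicate block 1565 genes were called, 657 higher and 908 lower, with fewer residual degrees of freedom. Klf5, Klf8, Klf9 and Klf13 moved by over 1.5 times with a pseudocount of 16, as given. The block ended the calls of 15 named genes: Klf13 (adjusted p = 0.0523), Sp3 (0.0572), Ctbp1, Fbxw7, Usp3, Bcat2, Slc38a3, Figla, Dppa3, Egfl7, Cd68, Cnn1, Tgfbr1, Cebpd and Fkbp5 (adjusted p 0.0521, for Cnn1, to 0.137, for Ctbp1). No second probe set naming a listed KLF gene alone gave a value, and the filter on dim genes gave none for Klf15.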

Other observations

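Klf7 was the only KLF gene with 2 probe sets. The dimmer one had 3.93, 4.15 and 5.11 in Torin1 samples and 3.22, 2.95 and 3.13 in DMSO samples on the log2 scale, and like the brighter one it was higher on every Torin1 array and highest in sample 3.

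The genes most like Klf5 over the 6 arrays, among 11089 others above the median gene, were Kcnk10, a potassium channel gene (Pearson r = 0.9998), Mfap3l (0.9977) and F2r, the thrombin receptor gene (0.9967). Kcnk10 was at 6.50 with Torin1 and 4.08 with DMSO. Those most like Klf8 were Med25, a Mediator subunit gene (0.9963), St3gal2, a sialyltransferase gene (0.9961), and Limd2 (0.9947). The 6 arrays form 2 groups, which sets much of such a correlation: 443 genes reached an r of 0.95 with Klf5 and 350 with Klf8.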
